A study of Mus musculus with 12 samples.

Results

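Later introns, meaning every intron of a gene after its first, held 5076 of the 36387 regions (13.95%) in which acetylation of histone H3 at lysine 27 (H3K27ac) was quantified in the regenerating livers of Cox10-/- and wild-type mice. The members were all regions whose deposited annotation placed them in an intron other than intron 1. That rule uses no measured level, but it was chosen with earlier results of these data known. They carried 1608 nearest-gene names, and in 61 of them the annotated intron lay in another gene than the nearest one. The Cox10-/- group came from mice with a floxed Cox10 allele that received AAV8-Cre, an adeno-associated virus carrying Cre recombinase. The wild-type group, as the labels name it, came from mice with the same floxed allele that received AAV8-GFP. Both groups had a 70% partial hepatectomy 4 weeks after the virus, and the liver was taken on day 2 after surgery. Each group had 3 H3K27ac libraries, and the labels give neither the age, sex or strain of the mice, nor the promoter that drives Cre, nor the exon that is floxed. The labels number the replicates without stating that each came from its own animal, so p-values measure the spread between these libraries, which may be technical.

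H3K27ac is laid down by acetyltransferases such as p300 and CBP, which draw on acetyl-CoA, and it marks active promoters and active enhancers. Introns of liver genes hold many of the enhancers through which hepatocyte transcription factors act, and an enhancer may serve a gene other than the one whose intron it lies in. Cox10 makes an intermediate of heme A, without which cytochrome c oxidase, the last enzyme of the respiratory chain, cannot be assembled. Partial hepatectomy removes most of the liver and drives the remaining hepatocytes to divide.

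An intron by one annotation can hold the start of another transcript. Of 4895 later-intron regions on chromosomes covered by the RefSeq start table (GRCm38.p6, the assembly behind mm10), 43 (0.878%) overlapped a window from 250 bases before to 50 bases after an annotated start. Of the 45 windows touched, 36 belonged to predicted or clone-named genes, and 7 of the 43 regions touched a start window of their own nearest gene. No region overlapped any of 1005 miRNA hairpins. The 250 bases before 4 of these starts are shown because they let a reader see what a later-intron region can contain: 2 starts of Csrnp1, a nuclear protein gene, lie inside regions that carry the name Cx3cr1, and internal starts of Rara, the retinoic acid receptor alpha, and of Retreg1, a receptor for autophagy of the endoplasmic reticulum, lie in their own later introns. Sequences are RefSeq's, 5′ to 3′ on the strand of the gene. The Rara region ends before its start site, so the last bases printed lie outside it. Capitals mark matches, on either strand, to the AP-1 motif TGANTCA, to the box spelt CCAAT, or to the GC box spelt GGGCGG. The CRE motif TGACGTCA and the E-box CACGTG were searched too, and no match shown overlapped another.
Csrnp1 start A, chr9:119983024-119983273, minus strand: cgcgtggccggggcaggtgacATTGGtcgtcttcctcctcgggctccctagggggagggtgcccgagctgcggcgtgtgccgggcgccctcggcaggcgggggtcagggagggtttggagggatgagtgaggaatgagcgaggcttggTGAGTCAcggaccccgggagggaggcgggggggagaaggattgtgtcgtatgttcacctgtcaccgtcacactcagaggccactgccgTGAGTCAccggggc
Csrnp1 start B, chr9:119984444-119984693, minus strand: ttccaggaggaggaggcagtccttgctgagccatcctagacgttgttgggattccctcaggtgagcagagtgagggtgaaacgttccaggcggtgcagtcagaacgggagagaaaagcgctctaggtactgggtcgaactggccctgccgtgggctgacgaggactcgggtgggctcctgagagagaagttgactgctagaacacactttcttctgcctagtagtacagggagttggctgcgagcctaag
Rara internal start, chr11:98964622-98964871, plus strand: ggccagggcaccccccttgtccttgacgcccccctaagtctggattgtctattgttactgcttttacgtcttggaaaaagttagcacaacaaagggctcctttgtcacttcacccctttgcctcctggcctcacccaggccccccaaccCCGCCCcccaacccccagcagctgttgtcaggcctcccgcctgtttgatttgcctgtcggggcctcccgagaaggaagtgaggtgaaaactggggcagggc
Retreg1 internal start, chr15:25933302-25933551, plus strand: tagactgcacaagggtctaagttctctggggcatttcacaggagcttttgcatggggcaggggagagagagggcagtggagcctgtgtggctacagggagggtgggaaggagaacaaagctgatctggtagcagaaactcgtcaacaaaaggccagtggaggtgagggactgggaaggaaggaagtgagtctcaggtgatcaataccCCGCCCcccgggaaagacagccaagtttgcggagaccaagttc
Start A of Csrnp1 held 2 TGANTCA matches and 1 CCAAT match, the Rara and Retreg1 windows 1 GC box each, and start B none of the 5 motifs. Over all 32851 windows, TGANTCA occurred in 6.75%, TGACGTCA in 1.55%, CACGTG in 6.02%, CCAAT in 33.8% and GGGCGG in 32.7%. Start A had 20 CpG dinucleotides in its 250 bases, start B 10, Rara 6 and Retreg1 4, against a median of 6 over all windows. An internal start of Bcar3 also lay in a later-intron region of its gene and is not printed. Its 250 bases held 3 CpG dinucleotides and none of the 5 motifs.

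The regions at these starts were lower without Cox10 on the deposited scale. With libraries centred the Rara region was lower (log2 -0.38) and the region over start B was higher (0.43). The regions over start A (0.07) and the Retreg1 start (-0.05) were then not called. The region over start A held 272.8, 238.1 and 220.5 normalised reads in Cox10-/- libraries, against 478.9, 454.7 and 511.2 in wild type (1.98-fold lower, log2 -0.98, SE 0.09, limma adjusted p = 7.6e-22). The Rara region held 107.1, 88.0 and 91.7 normalised reads in Cox10-/- and 236.8, 279.4 and 264.6 in wild type (2.71-fold lower, log2 -1.44, SE 0.11). In both regions every Cox10-/- library lay below every wild-type library. Of the 43 regions that overlapped a start window, some by as little as 1 base, 37 were lower, 2 higher and 4 not called. Their median change was -0.99 (log2), against -1.30 for the later-intron regions that overlapped no start window.

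The libraries held 3282878 to 3385453 reads in regions for Cox10-/- and 3897454 to 4187377 for wild type. The deposited values are normalised read counts per region, and the scaling of each library was a single divisor (its size factor) of 1.18, 1.24 and 1.32 in Cox10-/- and 0.752, 0.730 and 0.782 in wild type. Spike-in chromatin was added per the labels' protocols, and the origin of the divisors is not stated in the labels or headers. Chi-square divided by its degrees of freedom, near 1 for pure counting noise, was 1.02 to 1.14 between Cox10-/- libraries, 1.15 to 1.21 between wild-type libraries and 12.3 to 13.1 across genotypes. Because these divisors differ between genotypes, many directions depend on the scale, and calls are also given after centring every library on the level of its median region, which moves every log2 fold change up by 1.05. The gene deleted, Cox10, had a single region, in its intron 5 of 6 on chromosome 11 from 63977336 to 63977787, with 60.3, 46.0 and 65.9 normalised reads in Cox10-/- and 14.6, 17.8 and 12.8 in wild type. That region was higher in every Cox10-/- library (3.62-fold, log2 1.86, SE 0.24, limma adjusted p = 2.0e-12), and an acetylated intron does not check a deletion.

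The genotypes were compared to see where acetylation within genes differed when Cox10 was missing. On the deposited scale later introns lost H3K27ac broadly: 4099 of 5076 regions (80.8%) were lower in Cox10-/- and 446 (8.79%) higher, with 531 not called (limma, adjusted p under 0.05). Over all regions 87.2% were lower and 4.46% higher. With libraries centred on the median region the members split into 2222 lower (43.8%) and 1418 higher (27.9%), where all regions gave 32.4% lower and 33.6% higher. The median later-intron region was 2.46-fold lower (log2 -1.30, interquartile range -1.85 to -0.61), against -1.04 over all regions and -0.87 at promoters. First introns had a median of -1.25 and distal intergenic regions -1.23. The medians were deeper, at -1.34, in regions flanking promoters and in exons, UTRs and gene ends. All regions in neither later introns nor promoters had -1.28. Whole liver was sampled, so fewer cells that carry a mark and less of the mark per cell cannot be told apart. Called falls of at least 2-fold made up 62.8% of members (52.3% of all regions), and those of at least 4-fold 19.5% (12.8%). Called rises of at least 2-fold made up 4.51% of members (1.99% of all regions), and those of at least 4-fold 1.48% (0.514%). With libraries centred, 17.4% of members were at least 2-fold lower (11.5% of all regions) and 14.3% at least 2-fold higher (8.29%), and the shares past 4-fold were 1.16% lower (0.976%) and 4.69% higher (2.12%). In 4062 regions every Cox10-/- library lay below every wild-type library, and in 442 every one lay above, where all regions gave 86.4% and 4.44%. The authors' deposited table calls 3987 members lower and 370 higher, with 84.8% and 3.58% of all regions at the same threshold.

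**Figure D1:**
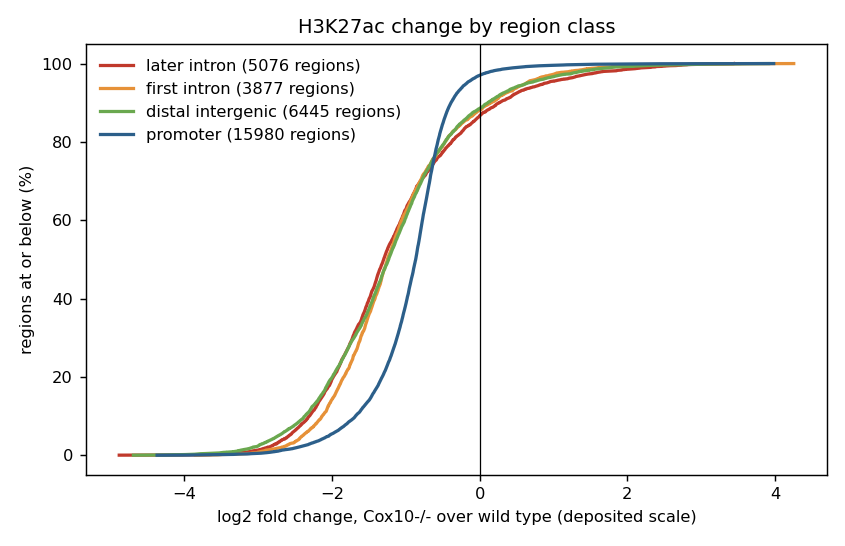
Cumulative share of regions (percent, vertical axis) at or below each log2 fold change, Cox10-/- over wild type on the deposited scale (horizontal axis), with 1 curve for each of 4 region classes. The curve of the 5076 later-intron regions crosses its middle at -1.30 and reaches 0 later than the promoter curve, whose middle is at -0.87.

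Summed over the 5076 regions, later introns held 264787, 253990 and 233515 normalised reads in Cox10-/- libraries, against 546603, 535945 and 537389 in wild type. In Cox10-/- the sum fell by 53.6% (two-sided exact permutation p = 0.1, n = 3), which is the smallest p that 3 against 3 libraries allow. A share within a library is free of any scaling between libraries. Later introns made up 9.43%, 9.30% and 9.39% of all region signal in Cox10-/- and 9.93%, 10.04% and 10.04% in wild type, so the groups did not overlap (exact permutation p = 0.1, two-sided, n = 3). The median later-intron level lay below the promoter median of the same library by 1.03, 1.06 and 1.06 (log2) in Cox10-/- and by 0.82, 0.81 and 0.80 in wild type (difference -0.24, exact permutation p = 0.1, n = 3). Against first introns of the same library, the gap was -0.069 ± 0.025 (log2) in Cox10-/- and -0.032 ± 0.013 in wild type (SD, n = 3, exact permutation p = 0.1). These groups nearly touched, at -0.0477 in Cox10-/- replicate 2 and -0.0467 in wild-type replicate 3. The exact permutation p was 0.2 with a pseudocount of 5, and 0.2 without Cox10-/- replicate 3 or any 1 wild-type library. Against distal intergenic regions the gap was -0.170 ± 0.016 in Cox10-/- and -0.147 ± 0.0097 in wild type (SD, n = 3, exact permutation p = 0.2), and these groups overlapped. Later introns thus held a smaller part of the signal in each Cox10-/- library, most visibly beside promoters. The spread of log2 levels over the members was 1.12 ± 0.0071 in Cox10-/- and 1.11 ± 0.015 in wild type (SD, n = 3, exact permutation p = 0.6).

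By position in the transcript, the median log2 fold change was -1.26 in intron 2 (1891 regions), -1.22 in intron 3 (920), -1.36 in introns 4 and 5 (853), -1.41 in introns 6 to 10 (774), -1.37 in introns 11 to 20 (423) and -1.49 beyond intron 20 (215). The 664 regions in the last intron of a transcript had a median of -1.27. Introns beyond the twentieth had 87.0% of regions lower and 5.12% higher, against 81.5% and 8.25% in intron 2. Distance was taken from the middle of a region to the nearest RefSeq start of any gene. The 169 regions within 3 kb of such a start had a median of -1.08, and the 630 regions more than 100 kb away one of -1.39. These are descriptions over regions that share genes and libraries, and none of these differences was tested.

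Called rises took a larger share of weak regions on the deposited scale, a contrast that was small with libraries centred. When the members were ranked by mean signal over the 6 libraries into 4 sets of 1269, the weakest set had 17.7% higher and 69.0% lower, and the strongest 3.55% higher and 89.8% lower. With libraries centred, the shares higher were 31.8%, 26.3%, 26.4% and 27.3% from weakest to strongest, and the shares lower were 38.6% in the weakest and 48.1% in the strongest. The medians of the sets were nearly alike, at -1.32, -1.33, -1.31 and -1.25 from weakest to strongest, while the SD of the changes narrowed across them, with 1.43 in the weakest and 0.75 in the strongest. Of the 1695 members at or above the median signal of all regions, 1504 were lower and 61 higher, where all regions of that strength gave 94.1% and 1.56%.

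The strongest later-intron regions were broad domains, and most of them fell on the deposited scale. Zbtb16, which encodes the transcriptional repressor PLZF, had 3 of the top regions. Its strongest, of 4550 bases in intron 3 of 6 (chromosome 9, from 48729747 to 48734296), held 667.1, 665.0 and 637.9 normalised reads in Cox10-/- and 1512.6, 1417.5 and 1372.7 in wild type (2.18-fold lower, log2 -1.12, SE 0.07, limma adjusted p = 4.5e-39), and was not called with libraries centred. In Man2a1, a Golgi mannosidase gene, the region fell 2.54-fold (log2 -1.34, SE 0.08). A region in H6pd, encoding the hexose-6-phosphate dehydrogenase of the endoplasmic reticulum, held 668.3 ± 24.3 normalised reads in Cox10-/- and 1032.1 ± 27.2 in wild type (SD, n = 3), 1.54-fold lower on the deposited scale but higher with libraries centred (log2 0.43). Bcl2l1, which encodes the survival factor Bcl-xL, held the strongest region in Cox10-/- of all members: 725.7, 719.9 and 646.3 normalised reads, against 537.4, 576.6 and 526.6 in wild type (1.27-fold higher, log2 0.35, SE 0.08, limma adjusted p = 1.1e-05). Here every Cox10-/- library lay above every wild-type library.

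The deepest falls were sought among well-covered regions. These had a mean over the 6 libraries at or above the median of all regions (74.8 normalised reads). The 10 falls named here passed only through wild type, since their Cox10-/- means were at most 37.7 (Ttbk1). The deepest lay in Grid1. In intron 4 of 15 of Grid1, a delta glutamate receptor gene, a region on chromosome 14 from 35119598 to 35120164 held 2.55, 7.26 and 3.79 normalised reads in Cox10-/- and 158.3, 154.8 and 144.4 in wild type (29.5-fold lower, log2 -4.88, SE 0.26, limma adjusted p = 2.3e-46). The mark was thus nearly gone from this region in each Cox10-/- library. Grid1 had 4 later-intron regions, all in intron 4, and the other 3 were 18.1-fold, 13.8-fold and 11.9-fold lower. These 4 form 2 pairs about 33 kb apart, and both pairs fell. A region in intron 2 of Spsb4, an adaptor of a ubiquitin ligase, held 19.7 ± 3.54 normalised reads in Cox10-/- and 221.7 ± 20.3 in wild type (SD, n = 3; 10.8-fold lower, log2 -3.44, SE 0.16). Regions of Sox5, a transcription factor gene, and of Slc25a26, the mitochondrial carrier of S-adenosylmethionine, were 10.4-fold and 10.1-fold lower. The cell adhesion gene Negr1 (10.0-fold), the Rap GTPase-activating protein gene Sipa1l1 (9.23-fold) and Nwd2 (9.07-fold) followed. Slc3a1, a subunit of the cystine transporter, Ttbk1, a kinase of tau, and Haao, an enzyme of tryptophan breakdown towards NAD, had regions 8.74-fold, 8.51-fold and 8.41-fold lower. All 10 of these regions were also called lower with libraries centred. Centring moves every change by the same amount, so regions picked for falls this deep could hardly lose that call.

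Ranked by the same rule, the largest rise among well-covered regions lay in Pvt1, a long noncoding RNA gene beside Myc. The region (intron 6 of 9, chromosome 15, 62334601 to 62336048) held 222.6, 201.8 and 220.5 normalised reads in Cox10-/- and 33.3, 30.1 and 34.5 in wild type (6.42-fold higher, log2 2.68, SE 0.14, limma adjusted p = 1.4e-45). Nrg4, encoding a ligand of the ErbB4 receptor, had a region in intron 2 of 8 with 151.3, 132.4 and 130.3 normalised reads in Cox10-/- and 58.5, 57.5 and 60.1 in wild type (2.32-fold higher, log2 1.22, SE 0.14). In both genes the groups were far apart, although 8 of the 10 later-intron regions of Nrg4 were lower (2 lower and 5 higher centred). A region of Dlgap1, a postsynaptic scaffold gene, was 2.05-fold higher, and regions of Susd1 and of Scp2, which encodes a sterol carrier and a peroxisomal thiolase, were 2.18-fold and 2.09-fold higher. Vmp1, needed to form autophagosomes, Lyrm4, needed to build iron-sulfur clusters in mitochondria, and Ell2, a factor of transcript elongation, had regions 2.01-fold, 1.92-fold and 1.82-fold higher. Rtf2, a gene of replication termination, had a region with 100.3, 114.6 and 85.6 normalised reads in Cox10-/- and 38.6, 56.2 and 78.0 in wild type (1.78-fold higher, log2 0.84, SE 0.16), the closest approach of the groups among these 10. A region of Bcl2l1 was 1.76-fold higher. Among these rises, the wild-type mean reached the median of all regions (74.8) in Dlgap1 (156.6), Bcl2l1 (88.4) and Scp2 (76.0). The others passed the cut only through Cox10-/-.

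**Figure D2:**
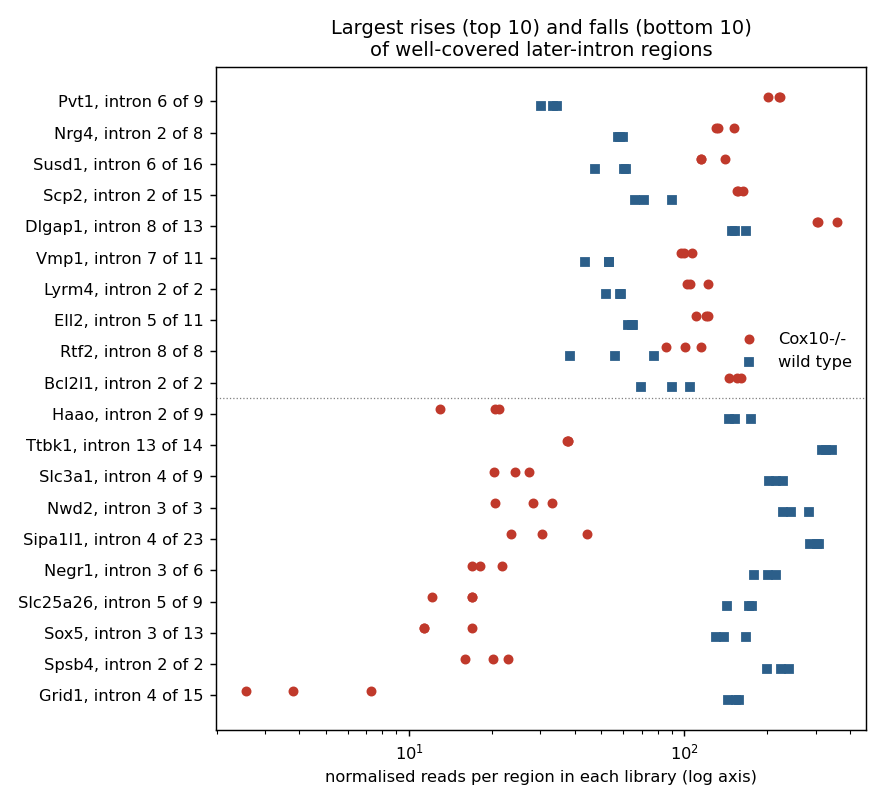
Normalised reads per region on a log axis (horizontal) in each of 3 Cox10-/- libraries (circles) and 3 wild-type libraries (squares), for the 10 largest rises and, below the dotted line, the 10 largest falls among well-covered later-intron regions. Grid1 stands apart at the bottom, with 2.55 to 7.26 normalised reads in Cox10-/- and 144.4 to 158.3 in wild type, and no pair of groups overlaps.

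Gene groups were described by their later-intron regions, beside the 80.8% lower and 8.79% higher of all members. Of 28 regions of 10 genes for hepatocyte secreted proteins, 28 were lower and 0 higher (limma, and 19 lower and 0 higher with libraries centred), with a median of -1.69. Plg, encoding plasminogen, had a region with 87.5, 63.8 and 74.2 normalised reads in Cox10-/- and 311.3, 334.2 and 346.4 in wild type (4.38-fold lower, log2 -2.13, SE 0.11), and a region of the coagulation factor gene F5 was 4.34-fold lower. Amino acid and urea metabolism had 45 of 48 regions lower and 0 higher, with a median of -1.56 (27 lower and 6 higher centred). In that group a second region of Haao was 7.71-fold lower, and a region of Dpys, an enzyme of pyrimidine breakdown, had a change of -2.32 (log2).

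Regions of fatty acid oxidation, ketogenesis and pyruvate entry were lower in 36 of 40 and higher in 0, with a median of -1.34 (17 lower and 5 higher centred). Pcx, encoding pyruvate carboxylase, had 23 later-intron regions and all 23 were lower, the most strongly called with 78.2, 72.6 and 71.2 normalised reads in Cox10-/- and 324.6, 345.1 and 356.6 in wild type (4.57-fold lower, log2 -2.19, SE 0.11). A region of Ppargc1a, a coactivator of mitochondrial biogenesis, was 3.41-fold lower. Lipid synthesis, storage and cholesterol had 70 of 74 regions lower and 3 higher, with a median of -1.33 (30 lower and 19 higher centred). Regions of Dgat2, which makes triglyceride, and of Srebf2, the regulator of cholesterol synthesis, had changes of -2.22 and -2.17 (log2). The rises in that group included a region in intron 6 of 13 of Me1, the cytosolic malic enzyme that supplies NADPH, with 88.2 ± 18.7 normalised reads in Cox10-/- and 21.3 ± 6.66 in wild type (SD, n = 3; 4.06-fold higher, log2 2.02, SE 0.20, limma adjusted p = 3.9e-19). A region of the acyltransferase gene Agpat3 was 2.71-fold higher.

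Transcription factors and nuclear receptors of hepatocytes held 211 regions, of which 188 were lower and 11 higher, with a median of -1.27 (84 lower and 44 higher centred). Ppara, the fatty acid sensing receptor, and Hlf, a PAR bZIP factor of circadian output, had regions 4.70-fold and 4.34-fold lower. In Foxp1, a forkhead repressor gene, 9 regions were lower and 5 higher (2 lower and 11 higher centred). Its strongest rise, in intron 4 of 17, had 128.3, 107.3 and 117.4 normalised reads in Cox10-/- and 16.0, 26.0 and 24.3 in wild type (5.23-fold higher, log2 2.39, SE 0.18, limma adjusted p = 3.2e-28). The 5 rises of Foxp1 lay next to each other within intron 4, and 2 other regions of the same intron fell 3.34-fold and 2.76-fold. Xenobiotic metabolism and conjugation had 47 of 61 regions lower and 3 higher, with a median of -1.02 (20 lower and 20 higher centred). The uptake transporter gene Slco1b2 and the bile export gene Abcc2 had regions 3.57-fold and 3.45-fold lower, while a region of Abcc3, which exports to the blood side, held 41.6 ± 3.68 normalised reads in Cox10-/- and 15.9 ± 7.03 in wild type (SD, n = 3; 2.65-fold higher, log2 1.41, SE 0.27).

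Growth factor, cytokine and regeneration signalling had 113 of 152 regions lower and 24 higher, with a median of -1.02 (54 lower and 53 higher centred). Of the 24 rises, 19 were in Pvt1. Grb14, an adaptor that restrains the insulin receptor, and Rapgef4, a cAMP-activated exchange factor, had regions 7.47-fold and 5.39-fold lower. A region of the receptor gene Fgfr2 was 2.45-fold higher. Neuronal adhesion and synapse genes had 42 of 51 regions lower and 8 higher, with a median of -1.92 (29 lower and 11 higher centred), and 5 of the 8 rises were in Dlgap1. Genes of histone acetylation and deacetylation had 18 of 24 regions lower and 2 higher, with a median of -1.56 (12 lower and 8 higher centred). Rcor1, of the CoREST corepressor complex, and Kat2b, an acetyltransferase, had regions 4.87-fold and 4.40-fold lower.

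The ATF4 and mitochondrial stress response held few later-intron regions, 4 in 4 genes. Of these 2 were higher, 1 lower and 1 not called, and with libraries centred 3 were higher and 0 lower. A region in the last intron of Trib3, a pseudokinase induced by ATF4, had 42.5, 37.1 and 30.3 normalised reads in Cox10-/- and 6.65, 9.59 and 8.95 in wild type (4.01-fold higher, log2 2.00, SE 0.33, limma adjusted p = 1.2e-08). A region of Mthfd1l, a mitochondrial enzyme of folate metabolism, was 1.91-fold higher, and 1 of Gpt2, the mitochondrial alanine aminotransferase, was 2.08-fold lower on the deposited scale and not called with libraries centred.

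Genes with many later-intron regions showed whether a gene moved as a whole. Of 315 genes with 5 or more such regions, 171 had every region lower on the deposited scale, 76 had calls in both directions and 23 had more regions higher than lower. Genes with every region lower could differ once libraries were centred. Abca1, with 14 of 14 lower, then had 1 lower and 7 higher, while Slc3a1, with 11 of 11 lower, kept 11 lower and 0 higher. Mtss1, encoding an actin and membrane binding protein, had the most regions: 48, all lower (27 lower and 2 higher centred), with a median of -1.39 and sums of 4490.3, 4221.0 and 3954.0 normalised reads in Cox10-/- and 11693.4, 11493.5 and 11642.2 in wild type. Zbtb16 had 39 of 46 lower and 2 higher (8 lower and 19 higher centred), and the focal adhesion gene Tns1 30 of 42 lower and 0 higher (11 lower and 18 higher centred). Arid5b, of the ARID family, had 23 of 34 lower and 3 higher (7 lower and 15 higher centred), and Nfia, a nuclear factor I gene, 29 of 31 lower and 2 higher (11 lower and 7 higher centred). Zmiz1, encoding a PIAS-like coregulator, had 12 of 29 lower, 3 higher and 14 not called (centred, 22 were higher and 1 lower), and sums of 2977.7, 2916.8 and 2676.7 normalised reads in Cox10-/- and 3509.4, 3336.3 and 3351.2 in wild type.

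**Figure D3:**
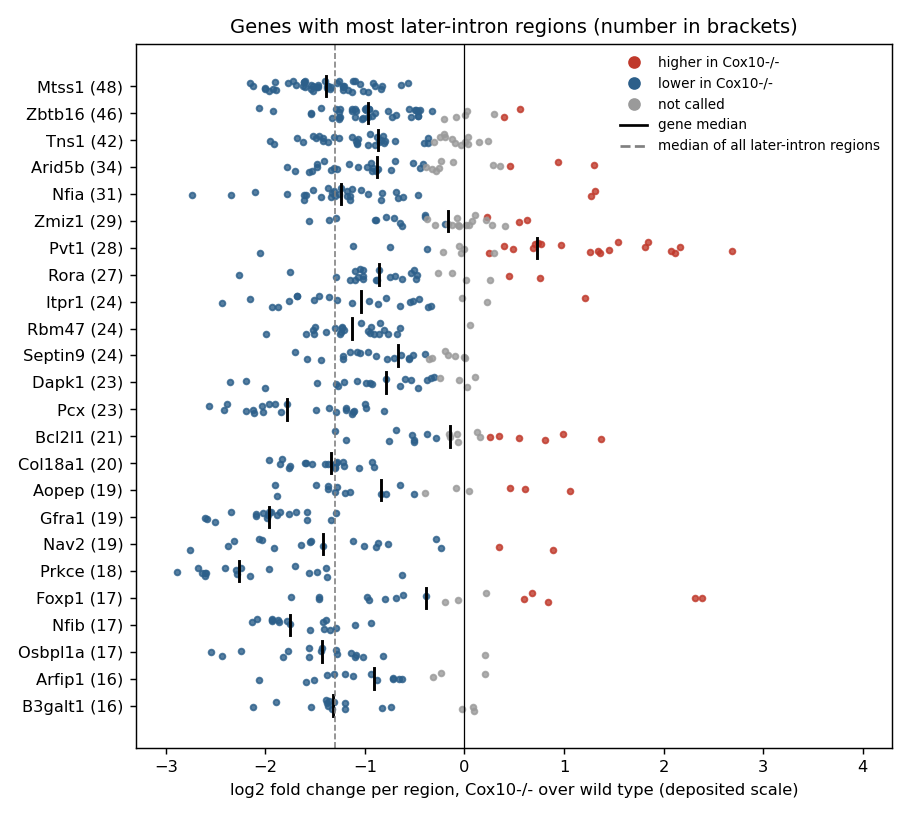
Log2 fold change of each later-intron region, Cox10-/- over wild type on the deposited scale (horizontal axis), for the 24 genes with most such regions (number in brackets), coloured by call, with the gene median as a bar and the median of all members, -1.30, as a dashed line. Points of Mtss1 all lie below 0 around a median of -1.39, and Pvt1 is the gene of the plot with a median above 0, at 0.73.

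Pvt1 had 28 later-intron regions, 19 of them higher, 4 lower and 5 not called (25 higher and 1 lower centred), with a median of 0.73. Its sums were 2684.5, 2554.4 and 2413.0 normalised reads in Cox10-/- and 1553.8, 1620.2 and 1569.5 in wild type. The rises gathered at several places, and a region in intron 4, with 143.6, 136.4 and 125.0 normalised reads in Cox10-/- and 31.9, 38.3 and 43.5 in wild type, was 3.52-fold higher. Less than 1 kb from the rising cluster in intron 6, a short region fell 4.16-fold.

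The genes that follow were chosen after their values were seen. Vmp1 had 9 of 14 regions higher and 2 lower (14 higher and 0 lower centred), and its sums were 2103.2, 1992.7 and 1869.8 normalised reads in Cox10-/- and 1631.0, 1610.6 and 1711.4 in wild type. Scp2 divided into blocks: 6 neighbouring regions within intron 2 of 8 of a transcript were lower, by 1.69-fold to 2.69-fold, and the 4 regions at the far end of the same intron were higher, by 1.61-fold to 4.97-fold. With libraries centred, none of the 6 falls was called, while all 6 rises of the gene still were. In Bcl2l1, all in intron 2 of 2, 6 of 21 regions were higher and 9 lower, and with libraries centred 19 were higher and 0 lower. Cdkal1, encoding an enzyme of tRNA modification, had 6 adjoining regions in intron 11 of 16 that were all higher. The strongest of them held 113.0, 106.5 and 112.9 normalised reads in Cox10-/- and 21.3, 13.7 and 21.7 in wild type (5.72-fold, log2 2.52, SE 0.19), while a region in intron 8 held 14.4, 6.46 and 12.9 in Cox10-/- and 65.2, 57.5 and 71.6 in wild type (5.60-fold lower). All 5 regions of Mast4, a microtubule-associated kinase gene, and all 5 of Dlgap1 were higher, with medians of 0.87 and 1.04.

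**Figure D4:**
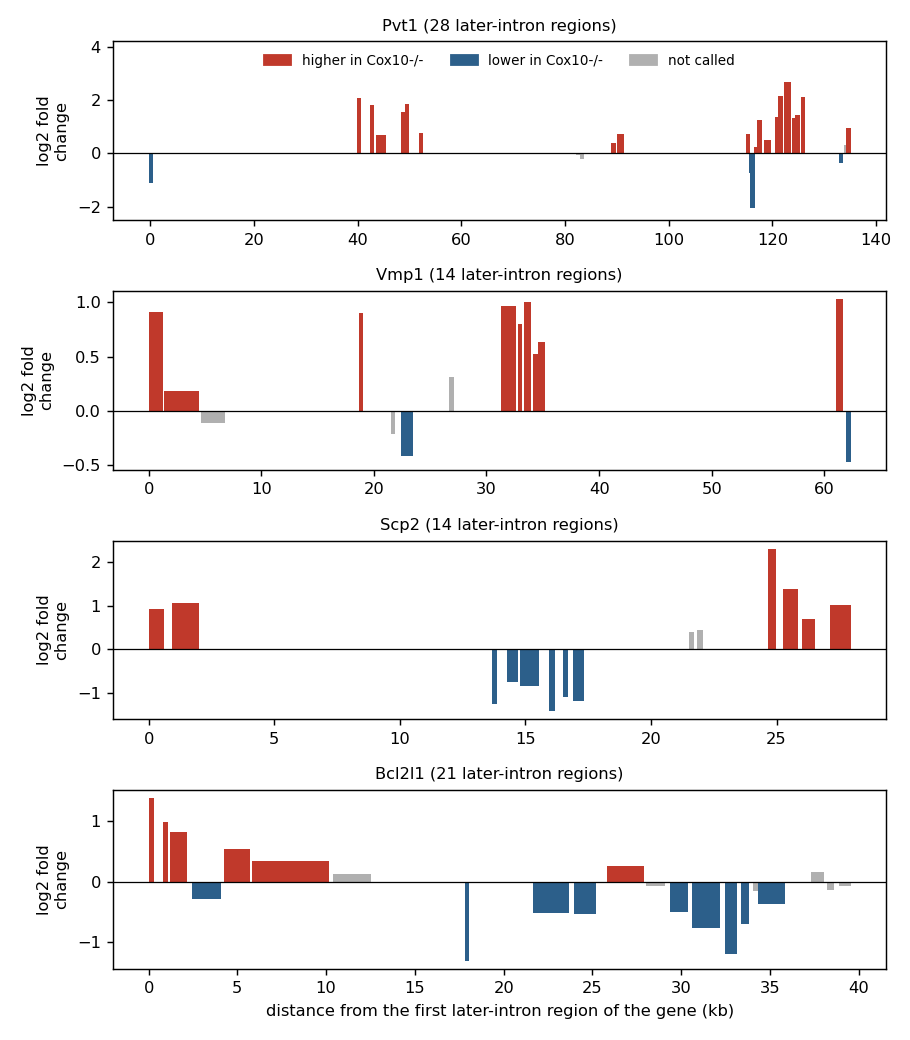
Log2 fold change, Cox10-/- over wild type on the deposited scale (vertical axes), of each later-intron region of Pvt1, Vmp1, Scp2 and Bcl2l1, drawn to scale along the chromosome as distance in kb from the lowest-numbered later-intron region of the gene, and coloured by call. Scp2 shows a block of 6 lower regions between 2 groups of higher ones, and Pvt1 shows 19 higher regions in several clusters.

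Neighbours moved alike at short range. Among 3468 pairs of adjacent later-intron regions of a gene, the changes differed by a median of 0.27 (log2) where less than 1 kb lay between them (2173 pairs), and 0.78% of these pairs were called in opposite directions. The median difference was 0.43 at 1 to 5 kb (3.08% opposite), 0.58 at 5 to 20 kb (7.31%) and 0.83 at 20 to 100 kb (opposite in 40 of 266 pairs). Adjacent regions share their libraries and may be parts of a single domain, so these values are a description.

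Later introns and promoters of the same gene were compared because both carry the same gene name and the difference within a library is free of its scaling, apart from the pseudocount of 1. Both kinds of region were present in 1248 genes. In 520 of them (41.7%) the later introns changed further downward than the promoters, in 338 (27.1%) the change lay the other way, and in 390 no difference was called (limma on the difference, adjusted p under 0.05). The median change was -1.31 (log2) in later introns and -0.98 at promoters, and the median difference was -0.23. Both kinds had a negative change in 1077 genes. In 142 genes the mean intron change was above 0 and the mean promoter change below 0 on the deposited scale, and the difference was called in 141 of them. Across the 1248 genes, which are not independent replicates and share libraries and depth, Pearson's r between the changes was 0.316 and Spearman's rank correlation 0.283. The typical gap between introns and promoter of a gene was -1.36 ± 0.026 (log2) in Cox10-/- and -1.24 ± 0.043 in wild type (median over genes, SD, n = 3, exact permutation p = 0.1).

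The genes with the largest differences in each direction were chosen after their values were seen. In Ttc19, an assembly factor of respiratory complex III, the single later-intron region held 34.0, 28.2 and 32.6 normalised reads in Cox10-/- and 1.33, 6.85 and 3.83 in wild type, while its promoter regions averaged 27.6, 28.2 and 24.6 in Cox10-/- and 67.2, 77.4 and 60.7 in wild type. Every Cox10-/- library thus lay above every wild-type library in the intron of this gene and below every one at its promoters. The difference of the changes was 4.17 (log2, SE 0.35, limma adjusted p = 3.4e-05). The intron region held very few reads in wild type, which makes the size of its change uncertain. Washc5, of the WASH complex that shapes endosomes, had 105.4, 95.2 and 96.2 normalised reads in its later-intron region in Cox10-/- and 9.31, 13.7 and 19.2 in wild type, while its promoter region was 1.77-fold lower. Eea1, the early endosome antigen, had 3 adjoining regions in intron 13 of 28 that were 5.01-fold, 5.95-fold and 6.98-fold higher, while its promoter regions averaged 1.66-fold lower. Ldlrad3, a gene of the LDL receptor class A domain family, had 3 regions in intron 4 of 5 that were 4.31-fold, 6.41-fold and 6.71-fold higher, and promoter regions 2.56-fold lower on average. Rnd1, a small GTPase gene, had a later-intron region with 76.5, 90.4 and 75.8 normalised reads in Cox10-/- and 14.6, 13.7 and 19.2 in wild type, against promoter regions 2.64-fold lower. In Sf3b3, a splicing factor gene, the later introns were 5.92-fold higher and the promoter 1.61-fold lower. All these directions are those of the deposited scale. Promoter changes there were -0.73 in Eea1, -0.82 in Washc5 and -0.68 in Sf3b3 (log2), less than the upward shift made by centring. These promoters are thus not lower with libraries centred. In Ttc19 (-1.31), Ldlrad3 (-1.36) and Rnd1 (-1.40) the promoter change was deeper than that shift. Centring leaves the difference between introns and promoters unchanged.

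In the other direction, Fads3, of the fatty acid desaturase family, had later-intron regions averaging 14.4, 16.9 and 14.8 normalised reads in Cox10-/- and 50.6, 51.4 and 47.3 in wild type, while its promoter regions averaged 63.3, 69.0 and 57.6 in Cox10-/- and 37.9, 35.6 and 30.7 in wild type. The intron change was -1.65 and the promoter change 0.90 (log2), a difference of -2.56 (SE 0.12, limma adjusted p = 5.1e-06), and the groups overlapped in neither kind of region. Ptprm, a receptor tyrosine phosphatase gene, had 5 later-intron regions 5.25-fold lower on average and a promoter region with 51.4 ± 1.19 normalised reads in Cox10-/- and 57.4 ± 5.58 in wild type (SD, n = 3). A region of Camta1, a calmodulin-binding transcription activator gene, was 11.1-fold lower, against 1.97-fold at its promoters.

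**Figure D5:**
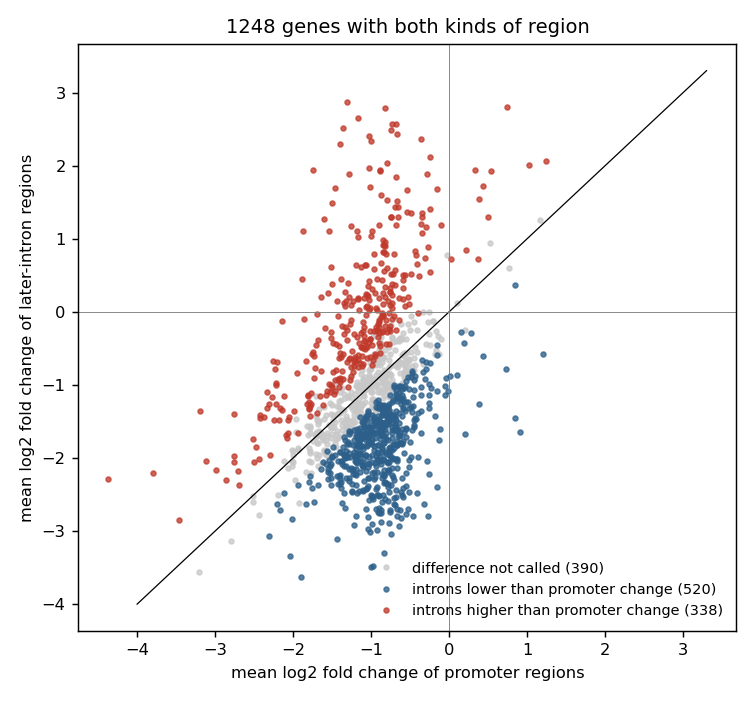
Mean log2 fold change, Cox10-/- over wild type on the deposited scale, of the promoter regions (horizontal axis) and of the later-intron regions (vertical axis) of each of 1248 genes, coloured by the call of the difference; the diagonal marks equal change. The 520 genes whose introns changed further downward lie below the diagonal, and 142 genes sit with introns above 0 and promoters below 0.

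Markers of liver cell types were looked up because whole liver holds several. All 14 hepatocyte markers had a region somewhere in the table, against 6 of 20 for macrophages and Kupffer cells, 8 of 20 for endothelial cells, 4 of 18 for stellate cells, 8 of 16 for biliary cells and 3 of 20 for lymphocytes and blood. In later introns, hepatocyte markers had 11 of 13 regions lower and 1 higher (median -1.09, 2 lower and 2 higher centred), with summed levels of 436.4 to 479.3 normalised reads in Cox10-/- and 967.1 to 1025.8 in wild type. An intron 8 region of Hnf4a, a master regulator of hepatocytes, held 49.3, 40.4 and 45.5 normalised reads in Cox10-/- and 25.3, 32.9 and 38.3 in wild type (1.40-fold higher, log2 0.49, SE 0.21, limma adjusted p = 0.025), with groups that did not overlap. That call was lost when Cox10-/- replicate 1 (log2 0.42), Cox10-/- replicate 3 (0.48) or wild-type replicate 1 (0.33) was left out. With every library kept, DESeq2 did not call the Hnf4a region (log2 0.48, adjusted p = 0.107). A region of the alpha-1-antitrypsin gene Serpina1b was 11.8-fold lower, and reads may be shared with its near-identical copies.

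Macrophage markers had 14 of 17 later-intron regions lower and 1 higher (median -0.93, 3 lower and 7 higher centred), with sums of 1228.1 to 1403.0 normalised reads in Cox10-/- and 2295.4 to 2414.3 in wild type. Of those 17 regions 15 carried the name Cx3cr1, a chemokine receptor gene, and they include the regions over the Csrnp1 starts shown above. At the 1 of them called higher, on chromosome 9 from 120012332 to 120012823, Cox10-/- libraries held 86.7, 94.4 and 66.7 normalised reads and wild-type libraries 35.9, 46.6 and 52.4 (1.82-fold higher). At promoters, on the deposited scale, macrophage markers had 3 of 6 regions higher and 1 lower, in 3 genes, with a median of 0.56. Hepatocyte markers had 38 of 38 lower, with a median of -1.90. Over all promoter regions 92.3% were lower and 1.26% higher, with a median of -0.87. Endothelial markers had 1 of 5 promoter regions lower (median -0.083) and biliary markers 5 of 6 (-1.39). Lymphocyte and blood markers had 3 of 5 lower (-0.73) and stellate markers 1 of 1 (-0.39). None of these other lists had a promoter region called higher. In later introns, endothelial markers had 6 of 6 regions lower (2 lower and 2 higher centred), with sums of 148.5 to 174.2 in Cox10-/- and 343.8 to 399.1 in wild type. Biliary markers had 8 of 8 lower there (4 lower and 2 higher centred), with sums of 236.4 to 312.7 in Cox10-/- and 650.6 to 708.1 in wild type. Stellate markers had no later-intron region. The single lymphocyte marker region, in Bach2, held 57.8, 46.8 and 37.9 normalised reads in Cox10-/- and 45.2, 32.9 and 24.3 in wild type (1.40-fold higher, log2 0.49, limma adjusted p = 0.023), with overlapping groups, and its call was lost without Cox10-/- replicate 1 (log2 0.34), Cox10-/- replicate 2 (0.49) or wild-type replicate 3 (0.27). With every library kept, DESeq2 did not call the Bach2 region (log2 0.48, adjusted p = 0.121). The part of cell composition in any of the changes at marker regions was not tested.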

How the data were processed

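H3K27ac ChIP-seq was made from 6 libraries, 3 per genotype, and the 6 input libraries were not analysed here. The authors deposited 1 table of normalised read counts per region (a signal), with log2 fold changes, p-values, adjusted p-values and a test statistic (a score) for each region, per the file headers. Per the submitters' processing notes, which give no roles, the tools were BWA 0.7.5, MACS and deepTools 3.5.0, and the build mm10. Of 36446 rows, 59 repeated a position and were dropped. Chromosome 16 was not analysed here, and the counting base of coordinates is not stated.

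Dividing by 1 size factor per library gave whole reads for 100% of values within 0.01 reads. Signals were tested over all 36387 regions with limma 3.58.1 (R 4.3.3) on log2(value + 1), with a variance trend, no filter and no block. P-values were adjusted by Benjamini-Hochberg, with a threshold of 0.05. The pseudocount understates changes of weak regions. Values per library were compared by exact permutation, two-sided. Alternatives were pseudocounts of 0.5 and 5, a minimum mean of 20, other scalings, a block, each library left out, and count models on the whole reads (edgeR 4.0.16, DESeq2 1.42.0). The scripts were tested on simulated data.

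The members, gene lists and rules were chosen with earlier results of these data known. Named regions were the 10 largest changes per direction at or above the median signal, up to 2 regions per direction of each list, the 5 strongest per genotype, the 6 genes with most regions, and Cox10. Where no gene lies at a region, its name is that of the nearest gene.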

Additional observations from a re-analysis of the deposited data

How the results depend on the processing

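The scale moved the counts of calls. With libraries centred on the median region, 2222 regions were lower and 1418 higher, with a median of -0.25 (log2); scaled to the sum of all regions, these were 2352, 1345 and -0.31. The median was -1.20 with a pseudocount of 5. Under these 2 scalings named regions of Zbtb16 (start 48734484; 0.28 and 0.24), H6pd (0.43 and 0.39) and Ctif (0.54 and 0.50) turned to higher. A region of Lyve1 turned to higher with libraries centred (0.42) and lay at 0.36 with the sum scaling (limma adjusted p = 0.0545). Under every other setting run, 66 of 69 named regions kept their call, and Hnf4a, Bach2 and Nav2 lost theirs in at least 1. Most named regions were picked by their change or adjusted p in these same data, so a kept call is little support. Replicate numbers did not pair the libraries (correlations of 0.016, 0.0011 and 0.0046), and with the replicate block 4104 regions were lower and 448 higher, with 497 and 321 genes in the within-gene comparison. Leaving out 1 library gave 4022 to 4102 lower, 384 to 446 higher and medians of -1.33 to -1.25. Over the same omissions the sum differed by -296226 to -280590, the share by -0.668 to -0.592 percentage points, and the gaps to promoters by -0.25 to -0.23, to first introns by -0.048 to -0.024 and to distal intergenic regions by -0.030 to -0.014. Within genes, 469 to 486 had deeper intron changes and 300 to 322 shallower ones; these within-gene settings were chosen after seeing the data. EdgeR called 4109 lower and 443 higher, and DESeq2 3987 and 370. With 3 libraries per genotype, no per-library comparison can reach a p of 0.05.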
